A study of Mus musculus with 2 samples.

Results

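The regions described here are the accessible sites that mouse prostate tumor cells had both early and late in progression toward neuroendocrine prostate cancer (NEPC) and that lie away from the ends of protein-coding genes. They were chosen by the deposited peak calls, as the ATAC-seq peaks of the 2-week list on chromosomes 1 to 19, X and Y that overlapped a 6-month peak by at least 1 bp and touched no window of 1 kb on either side of either annotated end of a protein-coding gene. Presence in both lists was therefore selected on and is no finding. This gave 1337 of the 5735 W2 peaks on these chromosomes, and 1324 distinct M6 peaks of 22570 stood behind them. ATAC-seq uses a transposase that inserts sequencing adapters into open DNA, and a peak is an interval where such insertions pile up. M6 cells had received tamoxifen over 6 months and represent the late stage. W2 cells had received it over 2 weeks and represent the early stage. Both libraries came from C57BL/6 mice, and both carry the tamoxifen treatment, so neither is an untreated control. The labels name no genotype, transgene or Cre driver, and do not say whether cells were pooled. With 1 library for M6 and 1 for W2, differences between them have no replicate check and get no p-value. Exact intervals cover counting error only, and intervals of medians cover only the spread over peaks.

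Open sites away from gene ends include enhancers, insulators, and promoters that lie inside a gene. Many genes can start transcription at more than 1 place, and a start downstream of the outermost one lies within the gene body, where a window around the gene's ends does not reach it. Promoters of mammals are often rich in the dinucleotide CG (CpG), and such CpG-rich promoters are usually open in many cell types. Enhancers, by contrast, tend to be open in particular cell types, and this is where open chromatin usually differs most between states of a cell.

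Promoters inside genes could be looked for at annotated starts, since RefSeq gives the sequence from 250 bases before to 50 bases after each annotated start. In all, 245 shared peaks away from gene ends covered such a start of a protein-coding gene, here called an internal start because its window touched no 1-kb gene-end window. The sequences of 6 of these starts are printed to show the range of promoter letters under the peaks, 3 rich and 3 poor in CpG. They were chosen after their values were seen. They come from RefSeq on GRCm38.p6, the assembly that mm10 names, and read 5′ to 3′ on the gene's strand. Capitals mark the matches, on either strand, to CCAAT (the box bound by NF-Y), GGGCGG (the box bound by SP factors) and TATAAA (the TATA box), the 3 of the 11 motifs searched that occurred in these windows.
Fer, chr17:63863731-63864030, plus strand: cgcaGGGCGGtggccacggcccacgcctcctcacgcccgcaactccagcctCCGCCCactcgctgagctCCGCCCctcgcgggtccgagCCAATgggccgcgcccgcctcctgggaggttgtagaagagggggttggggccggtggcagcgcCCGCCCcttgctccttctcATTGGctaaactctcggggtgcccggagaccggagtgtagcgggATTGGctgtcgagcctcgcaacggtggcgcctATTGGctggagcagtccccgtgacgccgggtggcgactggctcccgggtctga
Sp2, chr11:96977639-96977938, minus strand: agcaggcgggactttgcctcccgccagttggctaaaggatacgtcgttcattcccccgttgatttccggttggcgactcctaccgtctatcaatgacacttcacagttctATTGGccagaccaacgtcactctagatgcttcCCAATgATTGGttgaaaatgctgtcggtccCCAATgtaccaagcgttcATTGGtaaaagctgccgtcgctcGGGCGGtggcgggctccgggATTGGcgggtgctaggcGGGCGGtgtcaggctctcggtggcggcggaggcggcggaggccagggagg
Hdac4, chr1:92180292-92180591, minus strand: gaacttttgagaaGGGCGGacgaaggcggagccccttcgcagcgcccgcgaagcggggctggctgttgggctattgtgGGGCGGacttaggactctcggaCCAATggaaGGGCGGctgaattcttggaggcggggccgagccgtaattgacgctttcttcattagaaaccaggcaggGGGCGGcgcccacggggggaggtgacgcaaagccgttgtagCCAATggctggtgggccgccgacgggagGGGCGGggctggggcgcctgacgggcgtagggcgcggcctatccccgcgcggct
Arhgap32, chr9:32224025-32224324, plus strand: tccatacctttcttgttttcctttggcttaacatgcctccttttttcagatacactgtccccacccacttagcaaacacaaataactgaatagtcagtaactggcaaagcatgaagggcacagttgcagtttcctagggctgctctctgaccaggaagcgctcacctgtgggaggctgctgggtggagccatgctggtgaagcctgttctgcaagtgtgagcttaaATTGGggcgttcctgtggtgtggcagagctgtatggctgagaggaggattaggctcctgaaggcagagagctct
Ctnnd1, chr2:84650691-84650990, minus strand: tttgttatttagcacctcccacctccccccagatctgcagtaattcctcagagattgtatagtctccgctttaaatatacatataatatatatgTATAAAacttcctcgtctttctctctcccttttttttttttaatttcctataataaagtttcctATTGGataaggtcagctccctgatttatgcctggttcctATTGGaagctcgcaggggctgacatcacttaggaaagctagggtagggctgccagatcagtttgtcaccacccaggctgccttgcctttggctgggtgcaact
S100a3, chr3:90586702-90587001, plus strand: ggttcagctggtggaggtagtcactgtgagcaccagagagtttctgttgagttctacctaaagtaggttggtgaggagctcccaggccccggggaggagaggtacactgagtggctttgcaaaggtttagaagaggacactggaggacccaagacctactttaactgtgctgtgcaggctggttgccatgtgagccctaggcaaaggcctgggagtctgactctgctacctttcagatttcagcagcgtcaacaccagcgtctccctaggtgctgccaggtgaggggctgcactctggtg

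The start of Fer, a cytoplasmic tyrosine kinase that binds catenins, held 31 CpG, 4 CCAAT boxes and 4 SP boxes in its 300 bases. The start of Sp2, itself a zinc-finger factor of the SP family, held 25 CpG, 6 CCAAT boxes and 2 SP boxes. That of Hdac4, a histone deacetylase that moves between cytoplasm and nucleus, held 32 CpG, 2 CCAAT boxes and 5 SP boxes. The other 3 windows were poor in CpG. Arhgap32, a GTPase-activating protein, had 2 CpG and 1 CCAAT box, and Ctnnd1, the p120 catenin that holds cadherins at the membrane, had 3 CpG, 2 CCAAT boxes and 1 TATA box. S100a3, a small calcium-binding protein, had 3 CpG and none of the motifs searched.

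Signal at each site is given as the summit pileup, the number of sequenced tags over the highest base of the peak, as recovered from the authors' peak statistics. At the internal start of Fer the pileup was 65 tags in M6 and 35 in W2, a ratio of 1.86 (exact 95% interval 1.21 to 2.89). At that of Sp2 it was 68 tags in M6 and 39 in W2, a ratio of 1.74 (1.16 to 2.66). At that of Hdac4 it was 51 tags in M6 and 22 in W2, a ratio of 2.32 (1.38 to 4.01). All 3 CpG-rich starts were higher in M6, as were 90.2% of all internal starts. Their intervals lay above a ratio of 1, but the starts were chosen after their values were seen, so this is a description. At the CpG-poor start of Arhgap32 the pileup was 47 tags in M6 and 16 in W2, a ratio of 2.94 (1.64 to 5.55). At that of Ctnnd1 it was 38 tags in M6 and 18 in W2, a ratio of 2.11 (1.18 to 3.93). S100a3 went the other way, with 15 tags in M6 and 30 in W2, a ratio of 0.50 (0.25 to 0.959), and it was the only internal start at which M6 had no more than 0.5 times the W2 pileup.

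The shared peaks away from gene ends lay on annotated internal starts far more often than peaks of 1 library did. The start windows cover every chromosome analysed except 18, which holds 46 of the shared peaks and is not analysed here for starts. On the other chromosomes 245 of 1291 shared peaks covered an internal start (19%, exact binomial 95% interval 16.9 to 21.2%). The share was 3.74% (3.41 to 4.08%) of 12445 M6 peaks away from gene ends with no W2 counterpart (M6-only), and 2.21% (1.35 to 3.39%) of 907 W2 peaks with no M6 counterpart (W2-only). Starts of long non-coding RNA (lncRNA) genes followed the same order. They were covered by 80 shared peaks (6.2%, 4.94 to 7.65%), against 1.92% of the M6-only and 1.54% of the W2-only peaks. In all, 302 shared peaks (23.4%) covered a start of either kind.

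**Figure D1:**
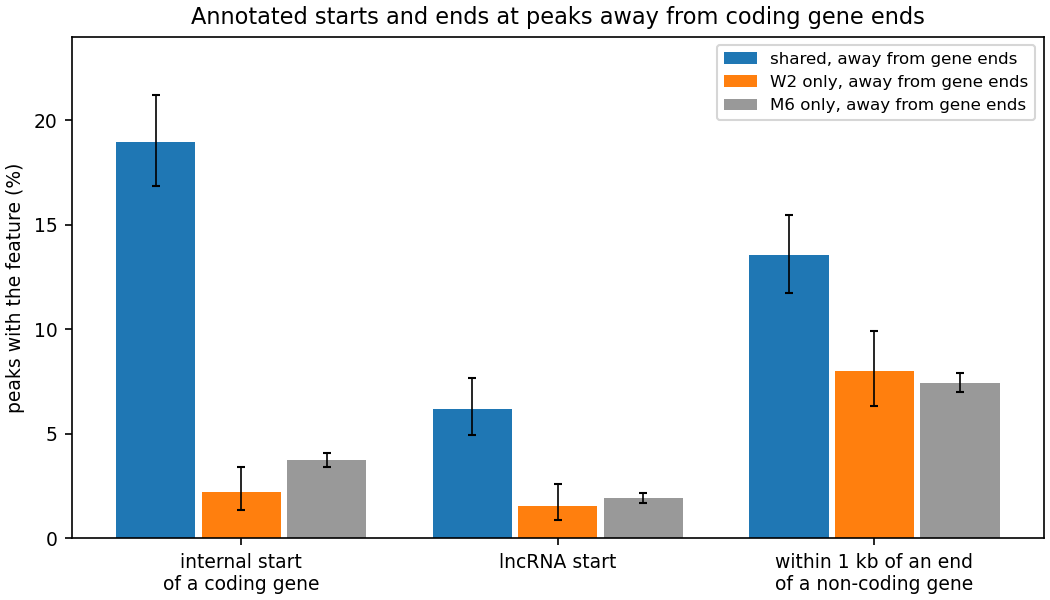
Share of peaks away from coding gene ends (%, vertical axis) that cover an internal coding start, cover a lncRNA start, or reach within 1 kb of a non-coding gene's end, for shared, M6-only and W2-only peaks; bars are shares and error bars exact 95% binomial intervals. The shared peaks stand highest for all 3 features, with 19% over an internal coding start.

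Peak strength moves with this share, since shared peaks are stronger, so shared and W2-only peaks were compared at matched W2 pileup. The M6-only peaks, with a median M6 pileup of 19 tags against 28 at the shared peaks, were not matched for strength. Among W2 peaks of 12 to 17 tags an internal start was covered by 37 of 264 shared peaks (14.0%) and by 5 of 315 W2-only peaks (1.59%). Among those of 25 tags or more it was covered by 75 of 274 shared peaks (27.4%) and by 2 of 71 W2-only peaks (2.82%). The shared peaks had the higher share in all 4 pileup classes, and within them the share was larger in stronger peaks.

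The summits lay close to the annotated starts. Of the 245 peaks, 222 (90.6%) had their M6 summit and 216 (88.2%) their W2 summit within 250 bp of the start. The median summit lay 46 bp upstream of the start in M6 and 61 bp upstream in W2. Summits upstream of the start made up 75.5% of the M6 and 78.0% of the W2 summits.

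**Figure D2:**
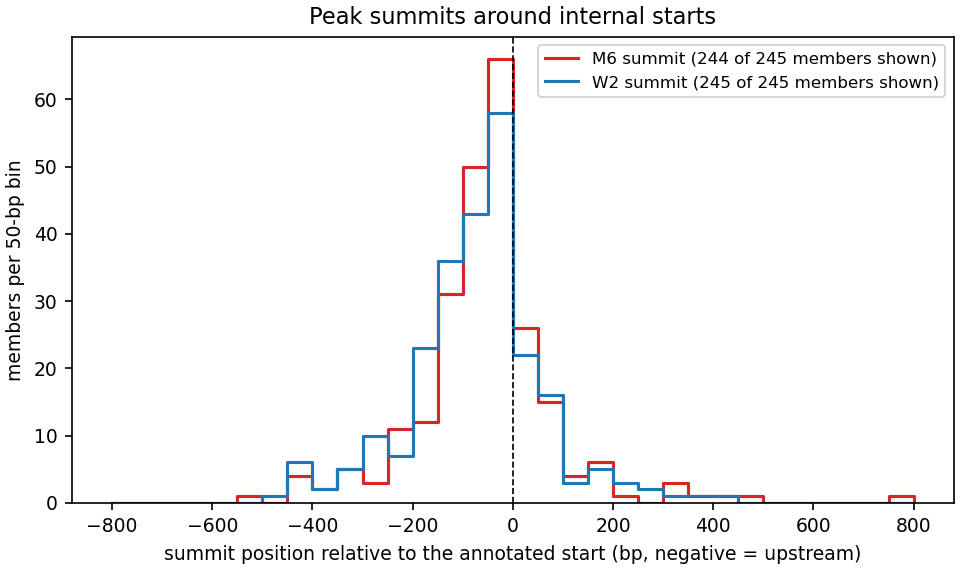
Number of shared peaks per 50-bp bin (vertical axis) by the distance of the summit from the annotated internal start (bp, horizontal axis, negative values upstream), for M6 and W2 summits. Both distributions peak just upstream of the start, with medians of -46 bp in M6 and -61 bp in W2, and 1 of 245 M6 summits falls outside the plotted range.

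The starts under the shared peaks were CpG-rich as a group. The 277 internal start windows under them had a median of 23 CpG and a GC content of 63.7%, and 92.8% held at least 10 CpG. The 570 internal start windows under any other peak of either library had a median of 19 CpG, and 80.7% held at least 10. The 2786 windows under no peak had a median of 6 CpG, and 31.1% held at least 10. For all 32851 start windows in the table the median was 7 and the share 43.5%. Only 17 of the 245 peaks had fewer than 10 CpG in the window of their nearest start, among them those of Arhgap32, Ctnnd1 and S100a3. Of these 17, 13 had the higher pileup in M6 and 3 had a ratio of at least 2. Of the 228 with 10 or more CpG, 208 were higher in M6 and 24 had a ratio of at least 2. The median log2 ratio was 0.46 at the 17 and 0.58 at the 228, so the 3 named are not typical of CpG-poor starts.

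**Figure D3:**
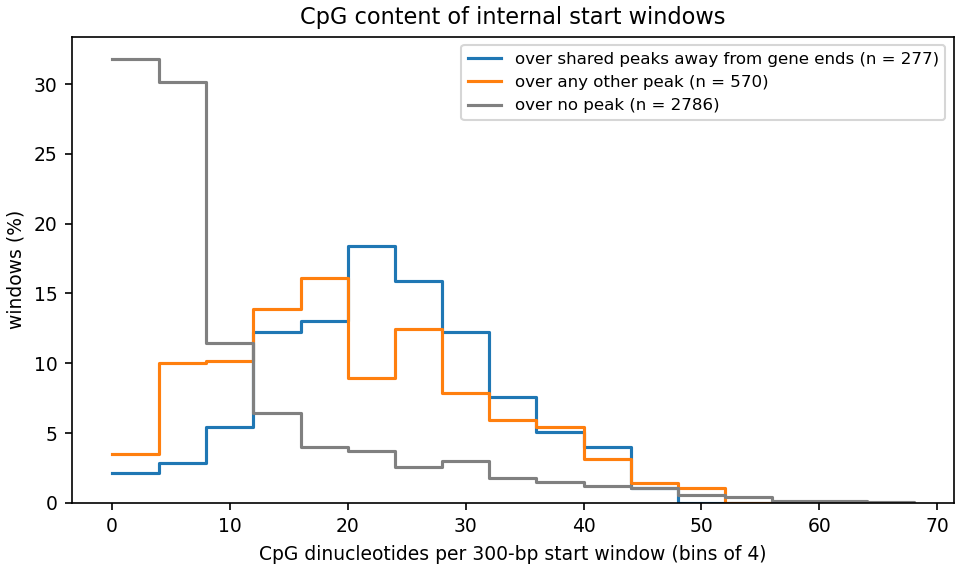
Share of internal start windows (%, vertical axis) by the number of CpG in their 300 bases (horizontal axis, bins of 4), for windows under shared peaks away from gene ends, under any other peak and under no peak. Windows under the shared peaks centre on 23 CpG and those under no peak on 6.

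Motif matches in the same windows are a description of letters, not of binding, and several of these motifs hold a CpG or are rich in G and C. The SP box GGGCGG was present in 73.6% of the windows under shared peaks, 59.3% of those under another peak, 29.6% of those under no peak and 35.7% of all start windows. The CCAAT box was present in 51.6%, 38.6%, 32.7% and 37.4% of the same 4 sets in the same order. The ETS site CCGGAAG was present in 17.7% of the windows under shared peaks (13.4 to 22.7%), 14.4% of those under another peak (11.6 to 17.5%) and 8.86% of all start windows. The NRF1 motif (GCGCA and GCGC with 1 base between) was present in 11.6%, 8.95% and 4.60% of these 3 sets, and the E-box CACGTG in 11.6%, 9.12% and 7.15%. For these 3 motifs the intervals of windows under shared and under other peaks overlap. The TATA box TATAAA was rarer under the shared peaks (4.33%, 2.26 to 7.45%) than over all windows (13.6%), as was the forkhead motif TGTTTAC (1.08%, 0.224 to 3.13%, against 3.65%). Under other peaks the TATA box was at 5.96% (4.17 to 8.24%) and the forkhead motif at 2.28% (1.22 to 3.87%). Both intervals overlap those of the shared peaks, so this scarcity was not particular to them. The AP-1 site TGANTCA was present in 5.42% (3.06 to 8.77%) against 7.81%, and the TEAD motif ACATTCC in 1.81% (0.589 to 4.16%) against 3.85%, neither beyond its interval. The CRE TGACGTCA (2.89% against 1.79%) and the CTCF core, CC and AGGGGGC with 3 bases between (2.53% against 1.28%), were rare in both. Both strands were searched, and no searched motif was allowed a mismatch.

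Among the 245 genes with an internal start under a shared peak were factors of transcription, the clock and the hypoxia response. The 8 genes given first were chosen after their values were seen and stand as examples of the values, not as a theme of the set. Srf, the serum response factor that drives actin and immediate early genes, had 47 tags in M6 and 35 in W2. Arntl, which encodes the clock factor BMAL1, had 42 in M6 and 27 in W2, and Per1, a clock repressor, had 33 in M6 and 19 in W2. Hif1a, the oxygen-regulated subunit of the hypoxia factor, had 26 in M6 and 21 in W2. Rbpj, the DNA-binding partner of Notch, had 33 in M6 and 21 in W2. Rfx3, a factor of ciliary genes, had 40 in M6 and 17 in W2, a ratio of 2.35. Hk1, a hexokinase, had 46 in M6 and 35 in W2. Nrxn3, a synaptic adhesion protein with a start 522 kb from the nearest gene end, had 48 in M6 and 25 in W2. Of all internal starts, 90.2% were higher in M6. The internal start with the highest M6 −log10 q was that of Aktip, which encodes an AKT-interacting protein, with 71 tags in M6 and 40 in W2.

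Over all 1337 shared peaks away from gene ends, M6 had the higher pileup at most sites, by a modest factor. The median pileup was 28 tags in M6 (quartiles 21 to 36) and 20 tags in W2 (18 to 24). The median log2 ratio of M6 over W2 was 0.40 (order-statistic 95% interval 0.37 to 0.43), and M6 was higher at 1001 sites (74.9%), equal at 64 and lower at 272 (20.3%). The 3281 shared peaks at gene ends had medians of 33 tags in M6 and 22 in W2, a median log2 ratio of 0.58 (0.56 to 0.61), and were higher in M6 in 90.2%. The 2 intervals of the median do not overlap, but they cover the spread over peaks only, not any difference between repeat libraries. Both sets come from the same pair of libraries, whose lowest local background, read as relative depth, was 2.65 tags in M6 and 2.96 in W2, a ratio of 0.895.

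M6 had at least 2 times the W2 pileup at 141 of the shared peaks away from gene ends (10.5%, 8.95 to 12.3%), near the 13.2% over all 4618 shared peaks. A ratio of 0.5 or less was seen at 10 of them, and 0.217% of all shared peaks had such a ratio. All 10 such shared peaks lay away from gene ends, and none of the 3281 at gene ends had one, which allows a share there of up to 0.112%. The typical site was too shallow for a single-site call: 28 tags in M6 against 20 in W2 give a ratio of 1.4 with an exact 95% interval of 0.761 to 2.62. The fold over local background, which the authors deposited and which sets each summit against its own library, gave a smaller difference. Its median was 5.46 in M6 and 4.76 in W2, the median log2 ratio was 0.19 (0.17 to 0.22), and it was higher in M6 at 70.4% of the sites, against 0.28 and 79.1% at gene ends.

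The internal starts had ratios near those of gene ends, and the other shared peaks had lower ones. The 245 peaks over an internal start had a median pileup of 32 tags in M6 and 22 in W2, with a median log2 ratio of 0.57 (0.51 to 0.61), and 90.2% of them were higher in M6. The 140 peaks at an end of a non-coding gene and at no internal start had 30 tags in M6 and 21 in W2, and a log2 ratio of 0.40 (0.28 to 0.55). The 518 peaks elsewhere inside a coding gene had 26 tags in M6 and 20 in W2, and a log2 ratio of 0.33 (0.26 to 0.40). The 388 peaks elsewhere outside coding genes had 25 tags in M6 and 20 in W2, and a log2 ratio of 0.36 (0.28 to 0.43). In these last 2 groups M6 was higher at 71.0% and 69.8% of the sites. By fold over local background the median log2 ratio was 0.27 (0.21 to 0.32) at internal starts, 0.16 (0.09 to 0.25) at non-coding ends, 0.15 (0.13 to 0.19) elsewhere inside genes and 0.20 (0.16 to 0.25) elsewhere outside them. A pileup ratio of at least 2 was seen at 27 of 245 internal starts (11%), 17 of 140 non-coding ends (12.1%), 50 of 518 sites elsewhere inside genes (9.65%) and 41 of 388 elsewhere outside (10.6%), and these shares did not differ beyond their intervals.

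**Figure D4:**
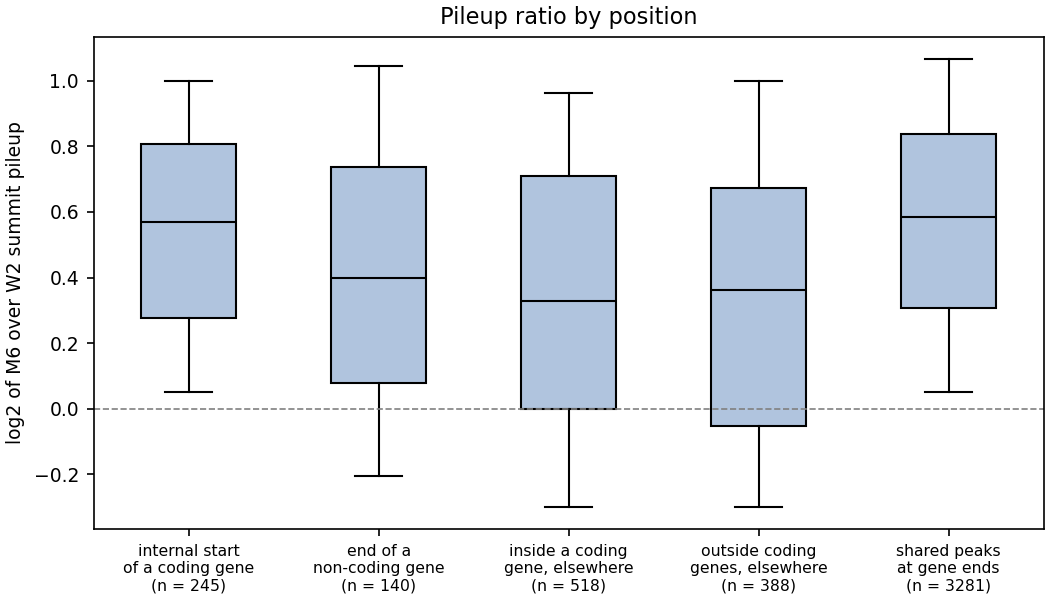
Log2 of M6 over W2 summit pileup (vertical axis) for shared peaks away from gene ends, split by position, and for shared peaks at gene ends; boxes span the quartiles with the median as a line, and whiskers reach the 10th and 90th percentiles. Internal starts (median 0.57) sit level with gene ends (0.58), and the other positions lie lower.

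Up to 500 kb, the pileup ratio, but not the fold ratio, was lower farther from genes. The median shared peak lay 13.1 kb from the nearest end of a coding gene, with a range of 1003 bp to 1034.55 kb. In all, 375 (28.0%) lay under 5 kb away, against 13.5% of the M6-only and 15.6% of the W2-only peaks away from gene ends. A further 131 lay at 100 kb or more. The median log2 ratio was 0.49 under 5 kb, 0.47 at 5 to 10 kb, 0.37 at 10 to 50 kb, 0.34 at 50 to 100 kb and 0.32 at 100 to 500 kb, and it was -0.04 at the 8 sites beyond 500 kb. The median log2 ratio of the fold was 0.16, 0.21, 0.20, 0.20 and 0.25 in the same 5 classes up to 500 kb, and 0.11 at the 8 sites beyond. Peaks over an internal start lay a median of 4435 bp from a gene end, and the other peaks with start windows 16742 bp. The distance classes were not adjusted for this. Inside a coding gene lay 826 of the shared peaks (61.8%, 59.1 to 64.4%), against 54.1% of the M6-only and 49.0% of the W2-only peaks. M6 peaks touched a gene-end window at 21 of the 1337 sites (1.57%), although the W2 peak did not.

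Peaks were wider in M6 at most sites, and the summits stayed close together. The median width was 419 bp in M6 and 276 bp in W2, and the M6 peak was wider at 81.7% of the sites, against 532 and 310 bp and 90.6% at gene ends. M6 and W2 summits lay within 50 bp of each other at 690 sites (51.6%), against 54.6% at gene ends. The shared peaks were spread thinly over the genome, with a median of 309 kb between neighbours and 83 (6.21%) within 10 kb of another. Chromosome X held 10 of them (0.748%), although it carries 4.41% of coding genes, and 0.853% of the shared peaks at gene ends were on it.

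Some of the sites lay at non-coding genes, internal starts of coding genes among them. In all, 181 shared peaks (13.5%) were at most 1 kb away from either end of a gene that is not protein-coding, against 7.42% of the M6-only and 8.0% of the W2-only peaks away from coding gene ends. The share was 15.0% (13.8 to 16.2%) among shared peaks at coding gene ends and 14.6% among all shared peaks, close to that of the sites. Of the 1291 sites with start windows, 140 lay at a non-coding end and at no internal coding start. Of all 181, 153 lay at a lncRNA, 8 at a transfer RNA, 7 at a small nucleolar RNA and 4 at a microRNA gene. A site can count under more than 1 of these kinds. Sites at tRNA genes, which RNA polymerase III transcribes, had pileups of 19 to 33 tags in M6 and 13 to 23 in W2. The peak nearest to Mir210, the gene of a microRNA induced by low oxygen, lay at chr7:141221744-141222373, 250 bp from the hairpin, and its M6 summit pileup of 59 tags was 2.36 times the 25 tags in W2 (1.46 to 3.93). Its mature arms are shown with the seed, bases 2 to 8, in capitals, since it was the only one of the 4 microRNA sites with a ratio of at least 2.
mmu-miR-210-3p: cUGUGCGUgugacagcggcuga
mmu-miR-210-5p: aGCCACUGcccaccgcacacug

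The sites with the strongest peak statistics were the same in both lists and had M6 over W2 ratios of 0.744 to 1.09. The 10 shared peaks with the highest −log10 q in M6 were also the 10 with the highest in W2. The first, inside Filip1l and Cmss1 at chr16:57391391-57391748, had 108 tags in M6 and 126 in W2, with folds over local background of 20.0 and 19.7. The second, 282 kb from Pex2 at chr3:5860292-5860874, had 115 in M6 and 119 in W2. The third, inside Zc3h7a, had 107 in M6 and 113 in W2. The others lay 21.1 kb from Ly6c2 (97 in M6 and 113 in W2), inside Aida (88 and 85), inside Cdk8 (65 and 62), 263 kb from Mc2r (59 and 54), 29.2 kb from Rpusd4 (58 and 78) and, as a pair, 1031 and 1035 kb from Lrrc4c (121 and 152, and 106 and 119). The exact interval of each of the 10 ratios included 1. The 13 shared peaks with a W2 fold of at least 10 had a median ratio of 0.95 (0.74 to 1.04), with 3 higher and 10 lower in M6, against 1.33 for the 1324 with a lower fold. Choosing sites by a high W2 value lowers their M6 over W2 ratio by itself, so these values are a description. Lists of repeats and of regions with excess signal were not used here, and the part of such sequence in these sites was not tested.

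The highest M6 over W2 ratios lay on 1 stretch of chromosome 4, where the M6 local background was also high. The 5 highest ratios were at Trit1 (195 tags in M6 and 15 in W2, ratio 13.0), Mycl (194 and 17, 11.4), Mfsd2a (186 and 18, 10.3), 16.7 kb from Trit1 (125 and 23, 5.43) and 45.0 kb from Ppt1 (92 and 19, 4.84). Mycl encodes L-Myc, Trit1 a tRNA-modifying enzyme and Mfsd2a a lipid transporter. The local background at these 5 sites was 41.5 to 89.8 tags in M6 and 3.52 to 4.20 in W2. Against that background their folds were 2.15 to 3.04 in M6 and 3.40 to 5.22 in W2, so that by fold all 5 were lower in M6. Pileup and fold went opposite ways at these sites, and the part of the raised background in their ratios was not tested.

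**Figure D5:**
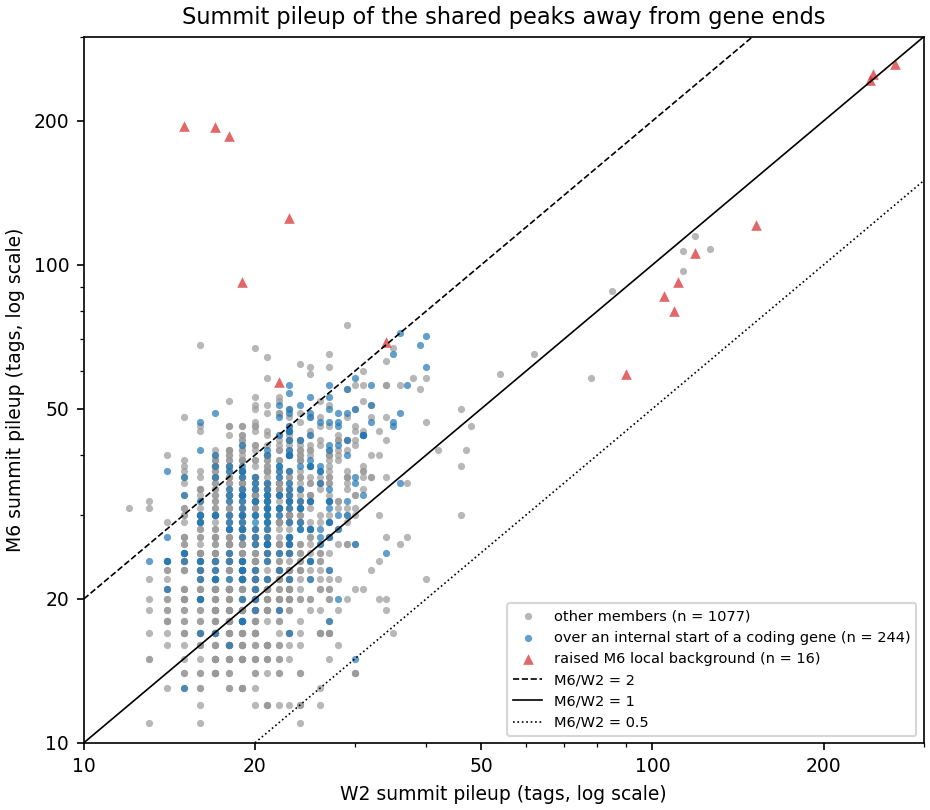
Summit pileup in M6 (tags, vertical, log axis) against W2 (tags, horizontal, log axis) for each of the 1337 shared peaks away from gene ends; lines mark M6/W2 ratios of 2, 1 and 0.5, and points with equal values overlap. Most points lie between ratios of 1 and 2, and triangles mark the 16 sites with raised M6 background. The sites with the highest −log10 q lie near the line of equal pileup.

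Outside raised background, the highest ratio was at Nos1ap, an adaptor of neuronal nitric oxide synthase, at chr1:170406894-170407259. Its pileup was 68 tags in M6 and 16 in W2, a ratio of 4.25 (2.44 to 7.85), and its fold was 9.66 in M6 and 4.19 in W2. The next were 8.61 kb from Ttll10 at the lncRNA gene Gm13648 (67 and 20, ratio 3.35), inside Nln, a peptidase gene (48 and 15, 3.20), 21.5 kb from Mapkap1, a subunit of the kinase complex mTORC2 (64 and 21, 3.05), and the internal start of Arhgap32. At all 5 the fold was higher in M6 too. Ptpdc1, Bclaf1, Eps8, Akap9 and Sepsecs followed, with ratios of 2.81 to 2.89.

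The lowest ratios were at weak M6 peaks. The lowest was inside Arhgap26, a GTPase-activating protein gene, with 11 tags in M6 and 24 in W2, a ratio of 0.458 (0.203 to 0.972). Tsks (12 in M6 and 26 in W2), a site 484 kb from Sox11 (14 and 30), sites near D5Ertd579e and Fzd10 (14 and 30 each) and a site near Abcb9 (17 and 35) came next, with ratios of 0.462 to 0.486. Usp43, Jazf1, Vps36 and S100a3 each had a ratio of 0.50. Pileups at these 10 sites were 11 to 17 tags in M6 and 24 to 35 in W2. The choice by ratio fixes that M6 was lower at each of them.

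Some sites had raised background in both libraries. Sfi1, a centrosome gene, was the only gene with 4 or more shared peaks at its locus, and it had 7. All 7 were lower in M6, with 15 to 92 tags in M6 and 20 to 111 in W2 and ratios of 0.556 to 0.95. At 4 of them the background was 27.8 to 45.0 tags in M6 and 36.8 to 63.2 in W2. The 3 peaks at the ribosomal RNA pseudogene Rn18s-rs5 had the highest pileups of all, 243 to 263 tags in M6 and 241 to 267 in W2, with background over 100 tags in both libraries. One of them was the widest M6 peak among the sites, at 3902 bp. Raised M6 background was also found at Mnt (57 tags in M6 and 22 in W2) and at the internal start of Sin3a (69 and 34), which with the pair near Lrrc4c and the 5 sites on chromosome 4 make up the 16 such sites.

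Gene lists were read through the locus, the gene body with 10 kb on either side. Over all coding genes 1147 of 21887 (5.24%) had a shared peak away from gene ends at their locus. Longer genes had one more often, with 11.2% of genes over 57.1 kb and 1.51% of genes under 4.17 kb, and list counts were not adjusted for length. Genes of the actin cytoskeleton and cell adhesion had one at 11 of 30 loci (36.7%), and their median length was 70.5 kb against 17.2 kb over all genes. Their 12 sites had a median log2 ratio of 0.19, and 1 of them, the internal start of Ctnnd1, had a ratio of at least 2. The site in the locus of Actb covers an internal start and lies in its neighbour Fbxl18. Vcl, which encodes the adhesion protein vinculin, had 34 tags in M6 and 20 in W2, Myo10, an unconventional myosin, had 40 and 21, and Myh9, a non-muscle myosin, had 34 and 19. Cdc42bpb (15 in M6 and 22 in W2) and Rai14 (16 and 21) had the lower value in M6. With a −log10 q of at least 5 in both lists 6 of the 30 loci had a site, and with as many M6 as W2 peaks 4 had one.

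Nuclear receptors and pioneer factors had a shared peak away from gene ends at 7 of 27 loci (25.9%, median length 53.9 kb). Rara, a retinoic acid receptor, had 30 tags in M6 and 19 in W2, and Thrb, a thyroid hormone receptor, had 28 and 21. Nr2f2 had 24 in M6 and 20 in W2, and Nr3c1, the glucocorticoid receptor gene, had 23 and 20. Nfia and Runx2 had equal values, 24 and 22 tags in each library. With as many M6 as W2 peaks, 1 of the 27 loci had a site. AP-1 and immediate early genes had one at 4 of 24 loci (16.7%). Fos had 31 tags in M6 and 20 in W2, Nr4a1 35 and 25, and the stronger of 2 sites at Ier2 35 and 25. Fosb had 19 in M6 and 28 in W2, so the sites of these genes did not share a direction. With equal numbers of peaks 2 of the 24 loci had a site.

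Among markers of prostate cell types, luminal genes had a site at 4 of 34 loci (11.8%), against 5.24% over all coding genes, and at 2 with equal numbers of peaks or with a −log10 q of at least 5. Grhl2, an epithelial transcription factor, had 40 tags in M6 and 21 in W2, and Gata3, a luminal factor, had 37 and 22. The site in the locus of Spdef, which lies in its neighbour Pacsin1, had 24 in M6 and 16 in W2. Tmprss2, a cell-surface protease of luminal cells, had 18 in M6 and 16 in W2 at its stronger site, and 15 and 17 at the other. Neuroendocrine genes had one at 1 of 38 loci, Syp, which encodes synaptophysin, with 29 tags in M6 and 22 in W2. Basal genes (0 of 20), epithelial-mesenchymal transition genes (0 of 16) and Hippo, Wnt and TGF-beta targets (0 of 23) had none. A count of 0 allows a share of up to about 15.0%, 18.8% and 13.0%, taken as 3 over the number of genes and not as an exact interval.

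Markers of other cell types had sites at 0 to 9.09% of loci per list, against 5.24% over all coding genes. These are counts of 0 to 2 genes, too few to tell a share from 5.24%. Leukocyte genes had one at 2 of 22 loci (9.09%), Lcp1 (15 tags in M6 and 21 in W2) and Cd79a, whose site covers an internal start of its neighbour Arhgef1 (32 and 21). Endothelial genes had one at 1 of 15 (6.67%, Tek, 24 in M6 and 14 in W2), fibroblast genes at 1 of 16 (6.25%, Gsn, 32 and 28), and smooth muscle (0 of 10) and hepatocyte genes (0 of 15) had none. Their part in the results was not tested. Cell cycle genes had a site at 2 of 26 loci, Cdkn1a (20 in each library) and Pcna, whose site is the internal start of Cds2 (43 in M6 and 23 in W2). Housekeeping genes had one at 3 of 30 loci, among them Gpi1 (39 in M6 and 20 in W2) and Ywhaz (30 in M6 and 19 in W2). The Gpi1 site lay at an end of a non-coding gene, 2.33 kb from an end of Garre1.

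The rule's limits fell among sites with the following values. The shared peaks closest to a gene end without touching its window were 1003 to 1018 bp from Mex3b (35 tags in M6 and 21 in W2), Pcgf1 (27 and 25) and Pkd1 (50 and 27). The shared peaks just within a window lay near Cdk2ap2 (33 in M6 and 26 in W2), Foxo3 (45 and 20) and Iba57 (32 and 22), 989 to 998 bp from the end. The W2 peaks nearest to an M6 peak without overlapping it lay by Nectin1 (21 tags in the M6 peak and 15 in the W2 peak), Ube2g1 (19 and 22) and Esr1 (17 and 18), 0 to 22 bp apart. Of all W2 peaks away from gene ends 58.8% had an M6 counterpart, against 94.8% at gene ends, and the share was lower away from gene ends in all 4 classes of W2 pileup (45.6 against 90.1% at 12 to 17 tags, 79.6 against 98.6% at 25 or more). The sites farthest from any coding gene end, after the pair near Lrrc4c, lay 957 kb from Csmd3 (22 tags in each library), 789 kb from Ddx18 (19 in M6 and 20 in W2) and 572 kb from Ptprd (30 and 17). The widest M6 peaks after Rn18s-rs5 were at Impact, Clcn4, Zfp958 and Zbtb11, at 1338 to 1531 bp.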

How the data were processed

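Peaks from ATAC-seq of 1 M6 and 1 W2 library were analysed as deposited, called per library. Build mm10 and the tools Bowtie2, deepTools, SAMtools 1.4 and Trim Galore 0.5.0 are named in the submitters' processing notes. Not given in the sources used here are the peak caller, its threshold and the treatment of duplicate reads. The fold of each peak, a linear ratio of the summit over local background in the same library, was deposited by the authors. The −log10 p and −log10 q are the authors' caller values, as deposited, with a lowest −log10 q of 1.38 in M6 and 1.47 in W2. The deposited score was within 1 of 10 times the −log10 q and was not used. Without read totals, depth is known only through the local background.

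Summit pileup and local background were recovered from fold, taken as (pileup + 1)/(background + 1), and −log10 p, taken as a Poisson upper tail. A whole pileup within 0.001 of the deposited −log10 p was found for 100% of peaks, and the step was tested on simulated data. Raised background means 3 or more times the median of that library, a rule set after seeing the data. Each W2 peak was paired with its overlapping M6 peak of highest −log10 q, and 3 sites had 2 such peaks. Genes and sequences came from RefSeq GRCm38.p6 tables; all 346 genes of 15 lists matched by symbol. A gene-end distance runs from the peak's nearest edge. Exon, intron and UTR positions and sequence outside start windows are not analysed here. Shares carry exact binomial 95% intervals and ratios of pileups exact conditional 95% intervals. Python 3.11.15, pandas 2.3.3 and scipy 1.17.1 were used.

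The sites and lists were chosen with earlier results of these data known. Named sites are the 10 strongest per library, the 10 highest and 10 lowest ratios, the 5 farthest from genes, the 5 widest in M6, up to 4 genes per list and genes with at least 4 sites. Other names were chosen after their values were seen, and 1 list gene with a site is not reported here.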

Additional observations from a re-analysis of the deposited data

Results flagged for a closer look

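At the 5 chromosome 4 sites near Trit1, Mycl, Mfsd2a and Ppt1 the local background had a median of 63.5 tags in M6 and 3.70 tags in W2. They were picked out because this background, a signal outside the summit pileup, differed between the libraries. Their ratios of summit pileup are the 5 highest of all, and their folds over that background were lower in M6.

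Outside chromosomes 1 to 19, X and Y lay 24 M6 peaks and 30 W2 peaks, and 19 of these W2 peaks overlapped an M6 peak. They were picked out as data that no comparison used, and there is no control sample to set them against.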

How the results depend on the processing

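No setting tried reversed a value. With a −log10 q of at least 5 in both lists, 826 sites were left, 7.51% had a ratio of at least 2, the median log2 fold ratio was 0.16, 57.3% of summit pairs lay within 50 bp, 22.8% covered an internal start and 23 list genes had a site. With as many M6 as W2 peaks, the strongest by −log10 q, 663 sites were left and 29.1% of W2 peaks away from gene ends had a counterpart. The log2 pileup ratio was then 0.70, the log2 fold ratio 0.39, and 20.8% had a ratio of at least 2; 16.0% lay at a non-coding gene end, 56.1% of summit pairs were within 50 bp and 14 list genes had a site. A 5-kb gene-end window put 56.3% inside genes and gave 54.8% a counterpart, and windows at the ends of all annotated genes put 65.1% inside genes. Scaling M6 for depth gave a log2 pileup ratio of 0.56 and 17.9% with a ratio of at least 2. A locus of 50 kb on either side gave 73 list genes. Keeping only the M6 peaks of highest −log10 q raises the M6 over W2 ratio by itself. It can also only lower the share of W2 peaks with a counterpart. Scaling for depth raises every pileup ratio by the same factor. The values under these settings are therefore a description, and the cause of the other shifts was not tested. The overlap of at least 50% of the shorter peak, the largest-overlap partner, chromosome 4 left out and, chosen after seeing the data, the sites with a W2 fold of at least 10 or raised background left out moved no share or median beyond its interval.

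Leaving out a library was impossible with 1 per time point, and windows of 100 and 200 bp around summits were not run because no genome was used. No paired analysis was possible because each time point had 1 library. Both lists start at 10 to 12 tags, so weaker sites are outside them, and at typical depth the interval of a single ratio runs from 0.761 to 2.62.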
